A study of Sus scrofa with 21 samples.

Results

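The comparison described here is that of endometrium from between conceptuses (inter-sites) of pregnant Large White sows on day 24 after insemination with inter-site endometrium on day 13. It was chosen by sample title and takes 6 of the 21 arrays of the study, 3 from day 24 and 3 from day 13, with every non-control probe. All pregnant sows had been inseminated at heat, 9 were slaughtered, 3 on each of days 13, 18 and 24, and tissue was taken from attachment sites, where a conceptus touched the uterine wall, and from inter-sites. The 3 non-pregnant sows, given inactivated sperm in place of live sperm, were sampled on day 13. Each group holds 3 arrays, each a whole-tissue RNA sample labelled with a single dye (Cy3). Days 13 and 24 are different sows, while attachment sites and inter-sites of the same day were taken from the same 3 sows, and the labels used here do not say which arrays share a sow. In bulk tissue of this kind, fewer cells of a type and less RNA per cell cannot be told apart.

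Pig conceptuses do not invade the uterus. They elongate and begin to attach to the luminal epithelium around the earlier of these days, and by the later day a superficial, epitheliochorial placenta is forming and the uterine glands feed the conceptus with secretions (histotroph). The gland and surface epithelium respond to oestrogen, prostaglandins and interferons from the conceptus and to progesterone from the ovary, and inter-site tissue lies in the same uterus without a conceptus directly on it. By its labels, the comparison covers the net change over implantation away from conceptuses. Conceptus markers on these arrays are given below, as is a pair of libraries that stood apart from their labels.

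Levels below are log2 signals relative to the 75th percentile of each array, always listed for replicates 1, 2 and 3 in that order, and a difference of 1 is a 2-fold change. Between 62.31% and 77.13% of probes were above background on an array, and no spot was saturated. A pair of inter-site libraries stood apart from their labels. DKK1, a secreted WNT antagonist, read -3.24, 5.08 and 4.52 on the day 13 arrays and 5.24, 4.73 and -6.13 on the day 24 arrays. The library labelled day 13 replicate 1 and the library labelled day 24 replicate 3 were thus low for a gene that was high on the other 4 inter-site arrays, and the non-pregnant mean was -4.88. FST (follistatin, which binds activin) split the same arrays in the same way, at -2.26, 2.24 and 2.21 on day 13 and 0.69, 0.56 and -3.16 on day 24. The progesterone receptor gene PGR, at 3.43, 3.01 and 3.37 on the non-pregnant arrays, was 3.03 on the library labelled day 24 replicate 3 against 1.25 and 1.38 on the other day 24 arrays. Across all probes, the library labelled day 24 replicate 3 had a correlation of 0.988 to non-pregnant replicate 3, against 0.942 to each array of its own group. The library labelled day 13 replicate 1 had one of 0.970 to that day 24 library, against 0.943 and 0.934 to its own group. The labels were kept, and the counts of calls, the called genes and the list medians are given also without both libraries.

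**Figure D1:**
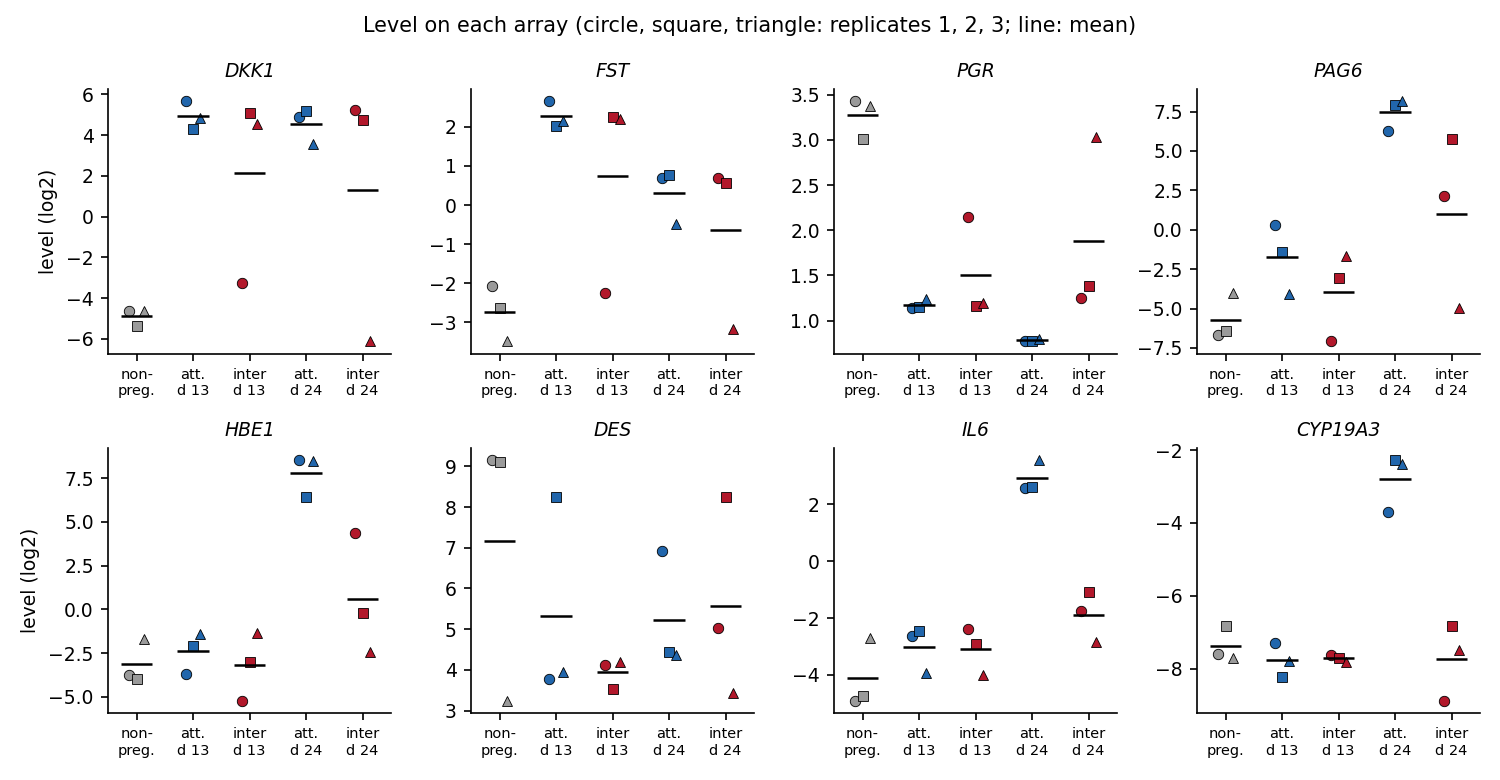
Level of 8 genes on each array (log2, after subtracting the array's 75th percentile) in non-pregnant, attachment-site (att.) and inter-site (inter) endometrium on days 13 and 24; each point is 1 array, its shape the replicate number, and the line the mean of 3. DKK1 and FST are low on day 13 inter-site replicate 1 and day 24 inter-site replicate 3, as in the non-pregnant sows, and PAG6 is high on 2 of the 3 day 24 inter-site arrays.

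Between days 13 and 24 the inter-site endometrium gained transcripts for secreted and matrix proteins, with osteopontin (SPP1), the collagenase MMP1 and its inhibitor TIMP1 among them. Other named genes that rose, by smaller amounts, included the proteasome genes PSMA5 and PSME3, the glycosylation gene DDOST and the glycolytic gene PGK1. A single named gene, BHMT, fell. Of 30091 probes tested, 74 (0.246%) passed an adjusted p of 0.05 (limma with Benjamini-Hochberg adjustment), 56 higher on day 24 (0.186%) and 18 lower (0.0598%). In each of these 74, the 3 arrays of day 24 lay apart from those of day 13, as did those of 15.6% of all probes tested. At an unadjusted p under 0.05 there were 4186 probes (13.9%), 2264 higher and 1922 lower. Of the 74, 25 carried a gene symbol and represented 19 genes, and 49 had none. With the brightest probe standing in for each gene, 12 of 2016 named genes were called (0.595%), 11 higher (0.546%) and 1 lower (0.0496%).

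The number of calls was unstable. It was 0 without day 24 replicate 2, 4 without day 24 replicate 1, 5 without day 13 replicate 2, 20 without day 13 replicate 3, 64 without day 13 replicate 1 and 226 without day 24 replicate 3. Without both libraries that stood apart it was 98, of which 34 were among the 74, and with the 6 compared arrays alone in the fit it was 1. Arrays of other groups entered these fits only through the shared estimate of spread. They also helped to decide which probes were tested and which probe stood in for a gene. The count was 14, 7 and 118 without non-pregnant replicates 1, 2 and 3. It was 6, 5 and 6 without those of day 13 attachment sites, and 6, 5 and 7 without those of day 24 attachment sites. It was 9 without day 18 attachment-site replicate 1, and 6 and 23 without day 18 inter-site replicates 1 and 2. Each of the 74 probes kept its sign in every one of these fits. That outcome was fixed, since days without overlap keep their order when arrays are left out. Arrays of other groups do not enter the difference itself. After normexp background correction 69 kept their sign. The balance of directions depended on scaling, with 98 higher and 11 lower when arrays were centred on their median, 19 and 2 after normexp, and 10 and 0 with slide as a fixed block. The median change over all probes was -0.04, against 0.08 with median centring and -0.32 after normexp.

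**Figure D2:**
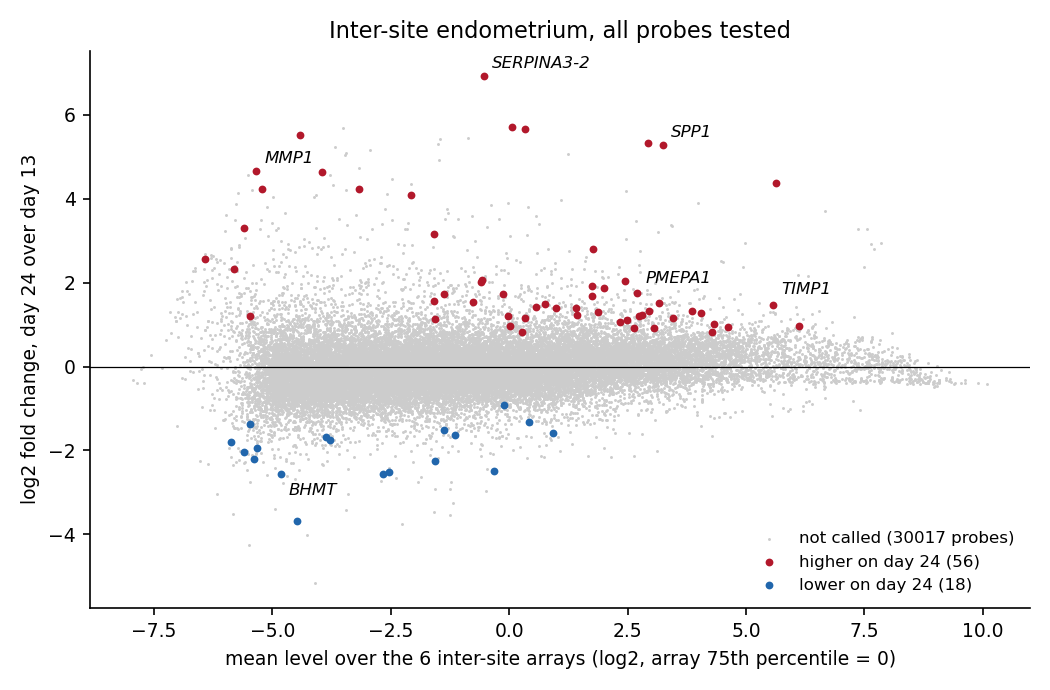
Log2 fold change of day 24 over day 13 at inter-sites (vertical) against mean level over the 6 inter-site arrays (horizontal, log2), 1 point a probe; red and blue points passed an adjusted p of 0.05 (limma). The 56 higher probes range from dim to bright and include all 4 SPP1 probes, while the 18 lower probes include none of the brightest.

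SPP1 encodes osteopontin, a secreted adhesion protein that binds integrins and is made by uterine epithelium near attaching conceptuses. Its level was 0.53, 1.35 and -0.09 on the day 13 arrays and 6.69, 5.69 and 5.25 on the day 24 arrays. Every day 24 array was higher than every day 13 array, by 5.28 ± 0.72 (SE) on the log2 scale or 38.8-fold (adjusted p = 0.0129). All 4 of its probes were called, with differences from 5.28 to 5.71. Without both libraries that stood apart the difference was 5.56 (adjusted p = 0.0197). On day 18 the inter-site level was 3.47, 3.58 and 1.31, which lay between the other days on replicates 1 and 2 and inside the day 13 range on replicate 3. The gene passed the threshold in 4 of the 6 fits that left out an inter-site array, and lost its call without day 24 replicate 1 and without day 24 replicate 2 (adjusted p up to 0.0669).

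MMP1, the interstitial collagenase, cuts fibrillar collagens. Its signal was not well above background on any day 13 array (-7.59, -7.67 and -7.78) and was above background on all 3 day 24 arrays (-2.88, -3.29 and -2.88). It was at least 5.76-fold higher on day 24, a bound set by the weakest signal measurable on the day 13 arrays (fitted log2 difference 4.66 ± 0.58 SE, adjusted p = 0.00663). The day 24 arrays lay close together, and the library labelled day 24 replicate 3 was as high as the others. The difference was 4.64 without both libraries (adjusted p = 0.0197), and the call was lost only without day 24 replicate 2 (adjusted p = 0.0669) among the 6 fits that left out an inter-site array. On day 18 it was still dim, at -7.61 on average. In the non-pregnant sows it read -7.54, -6.76 and -5.13, above background on 1 array of 3.

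SERPINA3-2, an antichymotrypsin-like inhibitor of serine proteases, had the largest difference of any called probe. It read -6.26, -3.25 and -2.48 on day 13, where 2 of 3 arrays were above background, and 2.29, 4.86 and 1.64 on day 24. The groups did not overlap, and the difference was 6.93 ± 1.19 (SE, adjusted p = 0.0409). Without both libraries it was 6.44 with an adjusted p of 0.0541, above the threshold. It belongs to a cluster of closely related serpin genes, and cross-hybridisation was not tested.

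TIMP1, an inhibitor of matrix metalloproteinases, read 4.70, 4.78 and 5.0 on day 13 and 6.09, 6.77 and 6.04 on day 24. The groups were more than 1 unit apart, the difference was 1.48 ± 0.29 (SE, adjusted p = 0.0474), and all 3 of its probes were called, at 1.48 to 1.91. Its adjusted p was 0.0844 without both libraries. PMEPA1, a membrane protein that dampens transforming growth factor beta signalling, read 2.57, 1.77 and 1.13 on day 13 and 3.90, 3.38 and 3.42 on day 24. The library labelled day 13 replicate 1 was the highest of its group, still below every day 24 array. The difference of 1.74 (adjusted p = 0.0495) was 2.19 without both libraries (adjusted p = 0.0304).

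**Figure D3:**
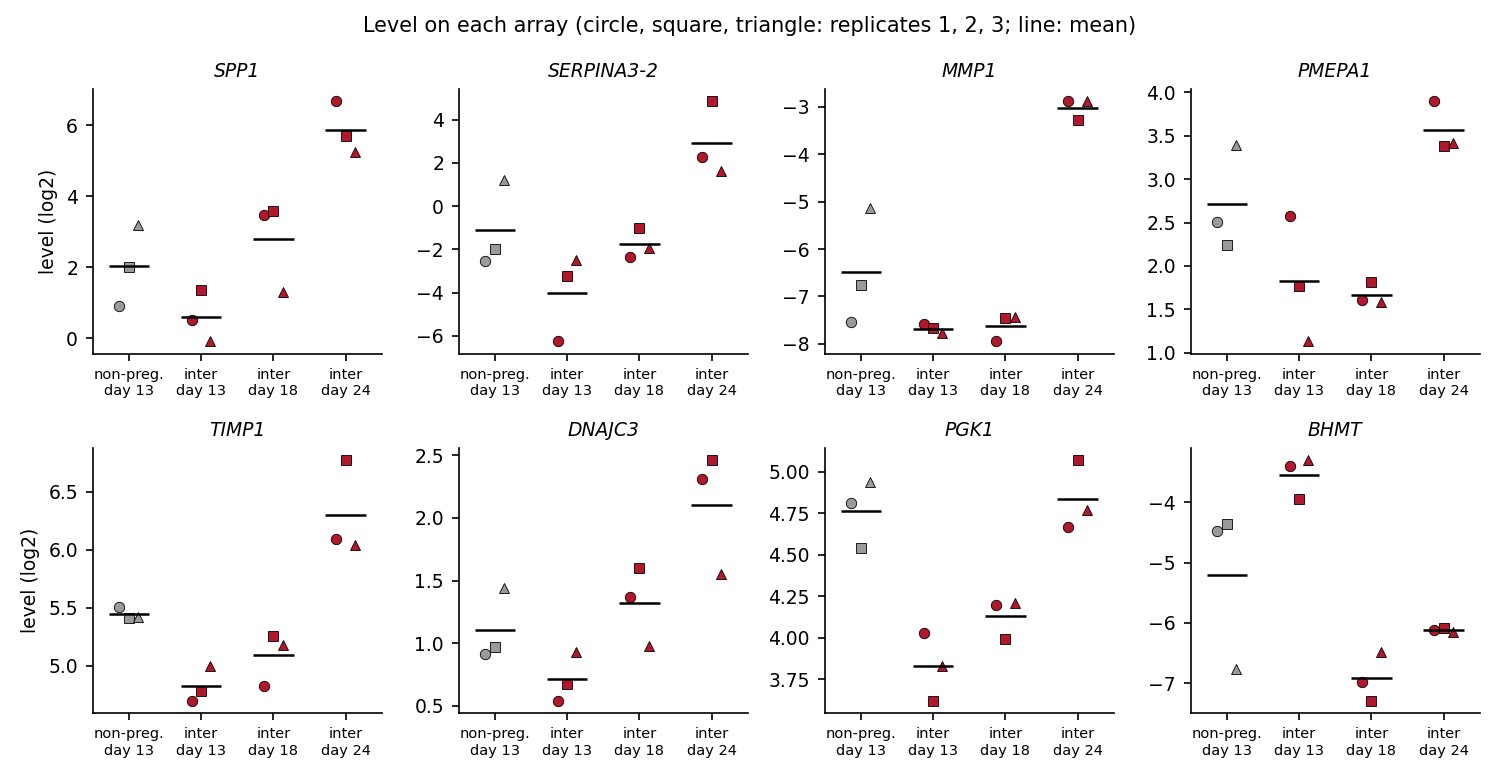
Level of 7 genes called higher and 1 called lower on day 24 than on day 13 at inter-sites, on each array (log2, after subtracting the array's 75th percentile, separate vertical scales); grey points are non-pregnant day 13 sows, red points inter-sites on days 13, 18 and 24, the shape is the replicate number and the line the mean. Day 13 and day 24 points do not overlap for any of the 8 genes, while day 18 lies near day 13 for MMP1 and PMEPA1 and below day 24 for BHMT.

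The other 6 genes called higher by their brightest probe had changes from 1.89-fold for PSMA5 to 2.63-fold for DNAJC3. DNAJC3, a co-chaperone of the endoplasmic reticulum (ER) that restrains the kinase PERK, read 0.54, 0.67 and 0.93 on day 13 and 2.31, 2.46 and 1.55 on day 24 (difference 1.40 ± 0.26 SE, adjusted p = 0.0409). DDOST, a subunit of the oligosaccharyltransferase that adds N-linked sugars to proteins entering the ER, read 4.0, 4.17 and 4.29 against 5.02, 5.26 and 5.03 (difference 0.95, adjusted p = 0.0474). Neither gene overlapped between days. PSMA5, a subunit of the proteasome core, was 2.69, 2.51 and 2.63 on day 13 and 3.42, 3.48 and 3.68 on day 24, a difference of 0.92 (adjusted p = 0.0474). PSME3, a proteasome activator, was -0.57, -0.52 and -0.33 against 0.63, 0.65 and 0.19, a difference of 0.96 (adjusted p = 0.0409). In both proteasome genes the spread within a day was smaller than the gap between days. PGK1, the phosphoglycerate kinase of glycolysis, rose from 4.03, 3.62 and 3.83 to 4.67, 5.07 and 4.77 (difference 1.01, adjusted p = 0.0409), with 1 of its 6 probes called and all 6 between 0.90 and 1.12. PPP1R14B, an inhibitor of protein phosphatase 1, rose from 2.45, 1.81 and 2.28 to 3.60, 3.09 and 3.55 (difference 1.23, adjusted p = 0.0409). Without both libraries that stood apart, DNAJC3 and PSME3 stayed under the threshold (adjusted p = 0.0304 and 0.0424), and DDOST, PSMA5, PGK1 and PPP1R14B did not (0.110, 0.109, 0.0555 and 0.0668).

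A further 7 genes were called on a probe other than the brightest, at adjusted p values of 0.0409 or 0.0474. AREG, an epidermal growth factor (EGF) family ligand, was not well above background on any day 13 array by its called probe and was at least 5.41-fold higher on day 24, while its brighter probe differed by 2.39 and was not called. FCN2, a ficolin that recognises microbial sugars, differed by 3.17. The called probe of MMP20, another matrix metalloproteinase, was not well above background on any day 13 array and was above it on 2 of 3 day 24 arrays, so no fold is given, and its other probe differed by 0.69 and was not called. TMED3, a cargo receptor of the early secretory pathway, had 2 of 3 probes called, at 2.08 and 2.02, and 1.89 on the brightest (adjusted p = 0.0693). RPN2, another oligosaccharyltransferase subunit, differed by 1.16 on the called probe, with 8 probes between 1.03 and 1.17. UCHL3, a ubiquitin hydrolase, differed by 1.15 on the called probe and by at least 1.05 on all 3. The probes of CYCS, cytochrome c, disagreed, at 1.29 on the called probe and 0.13 on the brightest. Without both libraries that stood apart, the called probes of AREG, FCN2 and CYCS stayed under the threshold (adjusted p = 0.0304, 0.0135 and 0.0378). Those of TMED3 (0.0711 and 0.0678), RPN2 (0.0668) and UCHL3 (0.0560) did not. The MMP20 probe was at 0.00822, but that fit left out its lowest day 24 reading, -6.47. This probe was above background on all 3 arrays only at day 24 attachment sites and was tested through that group. Its p is set against day 13 signals too dim to measure.

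BHMT, which remethylates homocysteine to methionine with betaine, was the single named gene called lower. It read -3.40, -3.94 and -3.30 on day 13 and -6.11, -6.08 and -6.15 on day 24, where 1 of 3 arrays was above background. The groups lay more than 2 units apart. The fitted fall was 2.57 on the log2 scale (SE 0.47, adjusted p = 0.0409), and 2.47 without both libraries, with an adjusted p of 0.0969. Since most day 24 signals were too dim, the size of this fall is not measured. BHMT was already low on day 18, at -6.92 on average. The other 17 lower probes carried no symbol here. Among them TC481412 fell by 1.52 (adjusted p = 0.00663) and was above background on all arrays of both days. CO992748 had a fitted fall of 3.68 (adjusted p = 0.0409). It was above background on 1 of 3 day 24 arrays, so that this size is not measured. The lower probes TC444747, CF365757, TC487449 and DN117717 were likewise above background on 1 of 3 day 24 arrays, and TC492281 on no day 24 array. Among higher probes without a symbol, TC512863 was at least 14.7-fold higher on day 24 and A_72_P124661 differed by 4.38 (adjusted p = 0.0409).

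Of 2016 named genes, 61 (3.03%) were lower on every day 24 array than on every day 13 array, and 290 (14.4%) were higher. Among the 75 genes of lipid, amino acid and fuel metabolism, 3 were lower in this way and 14 were higher without overlap. Beside the shares over all genes, these counts are not read as a result about that list. The genes below had the largest such falls at an unadjusted p under 0.05 (limma) without passing the adjusted threshold. LPIN1, a phosphatidate phosphatase, read -1.67, -1.11 and -1.42 on day 13 and -2.76, -3.90 and -3.03 on day 24 (difference -1.83, adjusted p = 0.133). GATM, the amidinotransferase of creatine synthesis, read 0.33, 2.10 and 0.69 against -0.86, -0.48 and -0.70 (difference -1.72, adjusted p = 0.149). EGF, a growth factor precursor, read -3.84, -1.39 and -2.60 against -4.12, -4.50 and -4.40 (difference -1.73, adjusted p = 0.183). The library labelled day 13 replicate 1 was the lowest of its group for each of these 3 genes, and without both libraries that stood apart the differences were -2.07, -2.06 and -2.31 (adjusted p = 0.207, 0.179 and 0.129). Other such genes were DOK5, an adaptor of receptor tyrosine kinases (-2.07), the nuclear receptor gene NR0B1 (-1.91), hepatic lipase LIPC (-1.41), the taste receptor subunit TAS1R3 (-1.41), the lymphocyte-homing molecule MADCAM1 (-1.37), amylase AMY2 (-1.29, with 23 probes between -1.77 and -0.97), KBTBD3 (-1.21) and the meiotic gene HORMAD1 (-1.18). Their adjusted p values ran from 0.0714 for KBTBD3 to 0.342 for AMY2.

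Over all 2016 named genes the median difference was 0.17, with 64.5% above 0, so that small positive medians of gene lists are the background here. At an unadjusted p under 0.05, 273 genes were higher (13.5%) and 44 lower (2.18%). The lists for the secretory pathway, proteasome, respiratory chain, glycolysis and translation were put together after the called probes had been seen, and their counts are not independent evidence. Of 10 genes in the proteasome list, which also held the ubiquitin hydrolase UCHL3, all lay above 0. Of these, 2 were called and 6 were at an unadjusted p under 0.05 (median 0.54). Of 10 genes of ER translocation and N-glycosylation, 1 was called and 6 were higher at that p (median 0.59), and RPN1, named after its value was seen, differed by 0.90. Of 10 genes of ER to Golgi transport, none was called by its brightest probe and 6 were higher at an unadjusted p under 0.05 (median 0.65), with the small GTPase genes ARL1 at 0.81 and ARF4 at 0.75. Of 9 ER chaperone and unfolded protein response genes, 1 was called and 5 were higher at that p (median 0.45), with the chaperones CALR at 1.05 and HSP90B1 at 0.88 (adjusted p = 0.0948 for each). Without both libraries that stood apart, the medians of these 4 lists were 0.56, 0.56, 0.63 and 0.46, beside 0.15 over all genes.

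The respiratory chain and ATP synthase list, which also held VDAC1, VDAC2, VDAC3 and SLC25A6, had 24 of 26 genes above 0. None was called and 9 were higher at an unadjusted p under 0.05 (median 0.48). Its ATP synthase genes ATP5G1 and ATP5A1 differed by 0.95 and 0.88 (adjusted p = 0.0751 and 0.0766). In glycolysis 7 of 8 genes lay above 0 and 3 were higher at that p (median 0.61), and lactate dehydrogenase LDHA, also named after its value was seen, differed by 1.52 (adjusted p = 0.121) beside PGK1. Of 6 genes in the tRNA synthetase and translation list, which also held NME2, 4 were higher at that p (median 0.66). Its valyl-tRNA synthetase VARS was at 1.13 (adjusted p = 0.0579). The array medians of the proteasome list were -0.41, -0.44 and -0.35 on day 13 and 0.16, 0.29 and 0.10 on day 24, relative to the mean of 21 arrays, without overlap. The non-pregnant arrays, at 0.25, 0.32 and 0.31, were as high as those of day 24. For the 75 genes of lipid, amino acid and fuel metabolism, 1 was called, PGK1, and 14 were higher and 4 lower at an unadjusted p under 0.05 (median 0.33). Without both libraries the medians were 0.52 for the respiratory chain, 0.77 for glycolysis, 0.77 for translation and 0.32 for metabolism.

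Among uterine secretions, 28 of 34 genes lay above 0, SPP1 was called, and 7 were higher and 1 lower at an unadjusted p under 0.05 (median 0.49, and 0.77 without both libraries). SLPI, SERPINA1, WFDC2, ACP5 and OPTC are named after their values were seen. The protease inhibitor gene SLPI read 8.56, 5.81 and 4.79 on day 13 and 8.86, 9.87 and 9.24 on day 24. The day 24 arrays were all higher, the library labelled day 13 replicate 1 was close to them, and the difference of 2.94 became 4.07 without both libraries (adjusted p = 0.172 and 0.0996). SERPINA1 (alpha-1-antitrypsin) and WFDC2 differed by 4.09 and 2.16 without overlap between days (adjusted p = 0.146 and 0.280). The iron-carrying uteroferrin gene ACP5 read 6.03, 9.31 and 9.17 on day 13 and 8.51, 9.26 and 6.34 on day 24, low on the libraries that stood apart. OPTC, which encodes the matrix protein opticin, differed by -3.42 with overlap (adjusted p = 0.201) and by -5.09 without both libraries (adjusted p = 0.0455).

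The matrix and remodelling list had 24 of 29 genes above 0, MMP1 and TIMP1 called, and 6 higher and 1 lower at an unadjusted p under 0.05 (median 0.49). PLAU, the urokinase plasminogen activator, read 2.49, 1.78 and 1.29 against 2.67, 3.77 and 3.73, without overlap (difference 1.53, adjusted p = 0.236). Of 50 growth factor, WNT and homeobox genes none was called by its brightest probe (median -0.04), and 4 were higher and 2 lower at an unadjusted p under 0.05. Its members included PTHLH (parathyroid hormone-like hormone) at 3.00, AREG at 2.39 by its brightest probe, the EGF family ligand HBEGF at 2.23 and BMP2, a bone morphogenetic protein, at 2.05. HBEGF read -2.51, -2.93 and -3.66 on day 13 and 0.46, -1.08 and -1.80 on day 24, without overlap (adjusted p = 0.107). PTHLH overlapped between days, at -1.42 on the library labelled day 24 replicate 3 against 1.51 and 2.22 on the other day 24 arrays, and passed the threshold without both libraries (3.05, adjusted p = 0.0424). The list medians without both libraries were 0.38 for matrix and 0.09 for growth factors.

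Of 34 complement and coagulation genes none was called, 5 were higher at an unadjusted p under 0.05 and none lower (median 0.40). Factor B, CFB, an enzyme component of the alternative pathway, read 1.83, -1.01 and -1.18 on day 13 and 3.73, 1.70 and 2.50 on day 24. Only the library labelled day 13 replicate 1 reached the day 24 range, and the difference of 2.76 (adjusted p = 0.107) became 3.81 without both libraries (adjusted p = 0.0396). Of 77 cytokines, chemokines and receptors, 1 was called, SPP1, and 9 were higher and 1 lower at an unadjusted p under 0.05 (median 0.22). The interferon response list had no call among 33 genes and 4 higher at that p (median 0.43). Within it ISG15, a ubiquitin-like protein induced by interferon, read 2.69, 3.16 and 3.11 on day 13 and 6.18, 4.19 and 4.03 on day 24 (difference 1.82, adjusted p = 0.199). OASL, another induced gene, differed by 1.64 without overlap (adjusted p = 0.130). Of 24 antigen presentation genes none was called and 2 were higher at that p (median 0.12). Without both libraries the medians of these 4 lists were 0.30, 0.18, 0.31 and 0.08.

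In prostaglandin synthesis none of 15 genes was called and 2 were higher at an unadjusted p under 0.05 (median 0.08). PTGES, a prostaglandin E synthase, read 2.40, 1.03 and 1.55 against 3.36, 3.58 and 2.78, and AKR1B1, a prostaglandin F synthase, 0.98, 0.43 and 0.24 against 1.74, 2.90 and 1.51. Neither overlapped between days (adjusted p = 0.131 and 0.247). Of 27 genes of steroid receptors and metabolism none was called (median 0.04), and 3 were higher and 1 lower at that p. HSD11B1, which regenerates active glucocorticoid, differed by 1.86 with overlap through the library labelled day 13 replicate 1 (adjusted p = 0.149). Of 39 transporters and channels none was called, 7 were higher and 1 lower at that p (median 0.34). The peptide transporter SLC15A1 and the water channel AQP8 differed by 2.70 and 2.24 with overlap (adjusted p = 0.279 and 0.245). Without both libraries the medians were 0.06 for prostaglandin synthesis, 0.14 for steroids and 0.20 for transporters.

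Of 24 angiogenic and vasoactive genes none was called and 4 were higher at an unadjusted p under 0.05 (median 0.27). HTR2A, a serotonin receptor, read -3.36, -4.44 and -4.76 against -3.09, -2.89 and -0.37, without overlap and highest on the library labelled day 24 replicate 3 (adjusted p = 0.118). Of 20 immediate early and heat shock genes none was called and 3 were higher at that p (median 0.09). HMOX1, haem oxygenase, read 3.13, 1.80 and 1.32 against 3.81, 4.67 and 3.74, without overlap (difference 1.99, adjusted p = 0.101). The cell cycle list had no gene past an unadjusted p of 0.05 among 16 (median 0.53), and its array medians, 0.19, -0.83 and -0.11 against -0.42, 0.06 and 0.93, overlapped. Without both libraries the medians of these 3 lists were 0.24, 0.22 and 0.21. For the lists without a call, the test was limma with Benjamini-Hochberg adjustment over all probes, and no other test was run on a list.

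**Figure D4:**
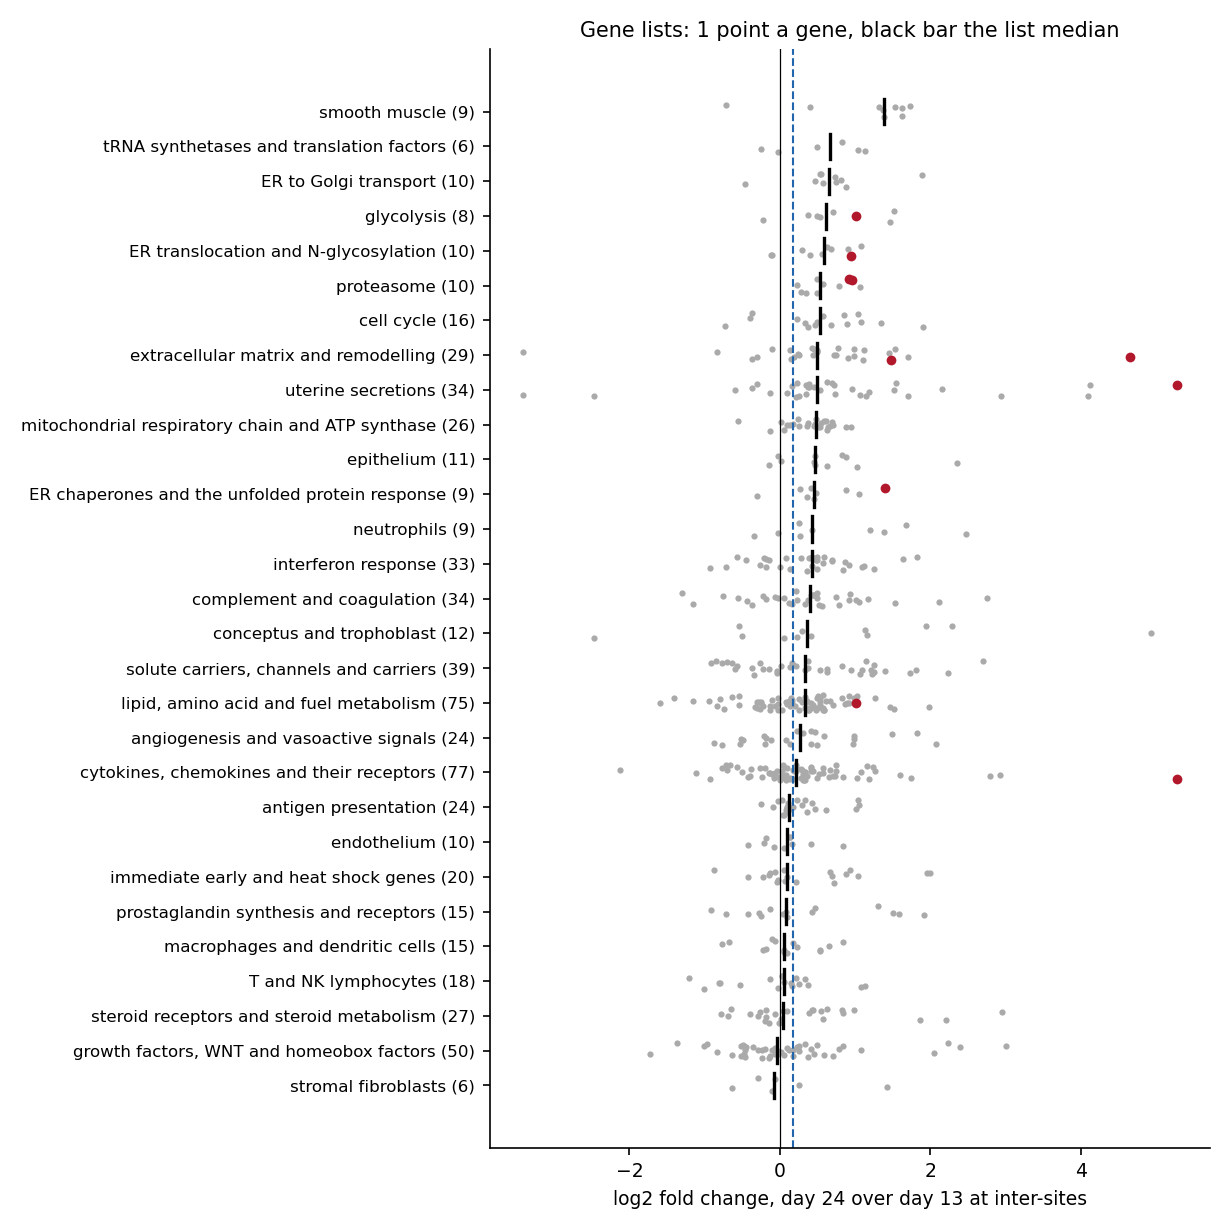
Log2 fold change of day 24 over day 13 at inter-sites for each tested gene of 29 lists (1 point a gene, number tested in brackets); red points passed an adjusted p of 0.05 (limma), black bars are list medians and the dashed line is the median over all 2016 named genes, 0.17. Most lists centre slightly above 0, and SPP1 and MMP1 lie far to the right in their lists.

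Markers of the conceptus and of other cell types were uneven across the day 24 arrays. PAG6, a pregnancy-associated glycoprotein made by trophoblast, read -7.09, -3.04 and -1.69 on day 13 and 2.17, 5.78 and -4.97 on day 24. It was high on 2 day 24 arrays and not on the library labelled replicate 3, so the groups overlapped (difference 4.93, adjusted p = 0.304). PPAG3, of the same family, read -7.73, -7.82 and -7.89 on day 13, not well above background, and -3.05, 1.0 and -7.67 on day 24, above background on 2 of 3 arrays (adjusted p = 0.201). Embryonic globin HBE1 read -5.22, -2.98 and -1.36 against 4.34, -0.19 and -2.43. At the attachment sites of day 24 PAG6 read 6.29, 7.93 and 8.17, above every inter-site array. Of 12 conceptus and trophoblast genes none was called, 9 lay above 0 and 2 were higher at an unadjusted p under 0.05. The array medians of this list were -0.42, -0.42 and -0.29 on day 13 and 0.30, 0.46 and -0.08 on day 24, with 1 member dim on all day 13 arrays. SPP1 and MMP1 were high also on the library labelled day 24 replicate 3 (5.25 and -2.88), where PAG6 lay within its day 13 range and PPAG3 read -7.67, though that library is 1 of those that stood apart from their labels. The part of conceptus RNA in the results was not tested. Without both libraries the median of the conceptus list was 0.27.

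The smooth muscle list had the highest median among lists with at least 5 genes tested, 1.39 (2.18 without both libraries), and its array medians were -1.67, -1.63 and -1.34 on day 13 and -0.69, 1.91 and -1.39 on day 24. Day 24 replicate 2 stood far above the other inter-site arrays of days 13 and 24, while day 18 inter-site replicate 3 was at 1.54. Non-pregnant replicates 1 and 2 were higher, at 2.87 and 2.66, and day 13 attachment-site replicate 2 was at 1.72. Desmin, DES, named after its values were seen, read 5.02, 8.25 and 3.42 on day 24 against 4.11, 3.54 and 4.19. None of its 9 genes was called, and the part of muscle in other results was not tested. Defining epithelial markers were present on every inter-site array, with CDH1 (E-cadherin) at 2.56, 2.83 and 2.70 on day 13 and 3.59, 3.51 and 3.48 on day 24, without overlap (adjusted p = 0.426). The 11 epithelial genes had a median of 0.47, none called and 1, the mucin MUC20, higher at an unadjusted p under 0.05. Medians were -0.08 over 6 stromal fibroblast genes, 0.09 over 10 endothelial genes and 0.05 over 18 T and NK lymphocyte genes. They were 0.06 over 15 macrophage and dendritic cell genes and 0.43 over 9 neutrophil genes, and no member of these 5 lists was called. Without both libraries the epithelial median was 0.21, and those of these 5 lists were 0.15, 0.18, -0.26, 0.19 and 0.36. At an unadjusted p under 0.05 there was 1 such gene in these lists, GZMB (granzyme B), at 2.06, 1.94 and 1.94 on day 13 and 1.29, 0.81 and 0.81 on day 24 (adjusted p = 0.161). The ciliated, red cell, B cell and mast cell lists had fewer than 5 genes tested, with SPAG6 at -0.25, HBE1 at 3.76 (unadjusted p = 0.0260, adjusted p = 0.287), KLF1 at -0.73, CD40 at 0.38, XBP1 at 0.27, KIT at 0.50 and MS4A2 at 0.04.

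Placed among the other groups, the day 18 mean lay between the day 13 and day 24 means in 65 of the 74 called probes, and past their midpoint in 16. These levels share arrays with the comparison itself and are given as a description. The 74 were picked for their gap between days 13 and 24, so a day 18 mean inside it is likely by selection. No share over all probes is given beside these counts. PGK1 averaged 4.13 on day 18, against 4.03 on the highest day 13 array and 4.67 on the lowest day 24 array. The non-pregnant mean was nearer to day 24 than to day 13 in 41 of the 74. PPP1R14B averaged 3.73 in the non-pregnant sows, as high as on day 24, and PSMA5 averaged 3.57. By contrast SPP1 averaged 2.04 there and MMP1 -6.48, both below every day 24 inter-site array.

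At attachment sites the same interval used 6 other arrays. Of the 74 probes, 73 differed in the same direction there and 68 were called in that direction, while 71.3% of all probes tested had the same sign at both kinds of site. The attachment-site comparison called 4724 probes (15.7%), 2534 higher and 2190 lower. Among those, 2386 of the higher and 2158 of the lower went the same way at inter-sites, with medians of 0.70 and -0.62 there against 1.48 and -1.25 at attachment sites. The 56 probes called higher at inter-sites had a median of 1.53 there and 1.79 at attachment sites, and the 18 lower ones -1.87 and -1.68. SPP1 differed by 7.09 at attachment sites and MMP1 by 4.51. Since the probes were picked by their inter-site change, the comparison of these medians is a description.

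The difference between the changes was tested directly. The test took all arrays as independent, although both kinds of site on a day came from the same 3 sows. The labels do not say which arrays share a sow. Of 30091 probes, 6 passed (0.0199%; limma, Benjamini-Hochberg), and 1459 (4.85%) had an unadjusted p under 0.05. In all 6 the change was lower at inter-sites. CYP19A3, BPI, BF444388 and TC502169 were above background on all 3 arrays only at day 24 attachment sites. They were tested through the group where they are high, so that direction is not a finding for them. The aromatase gene CYP19A3, which makes oestrogen, was not well above background on any inter-site array of either day (-7.63, -7.70 and -7.82, then -8.88, -6.82 and -7.49) and was above it on all 3 attachment-site arrays of day 24. Its fitted change differed by -5.0 (adjusted p = 0.0220), a value set against signals too dim to measure in 3 of the 4 groups, which is no measured size. The inflammatory cytokine IL6, by the probe that passed, differed between days by 1.34 at inter-sites (not called) and by 5.31 at attachment sites, so that the changes differed by -3.96 (adjusted p = 0.0220). BPI, a bactericidal protein, had a fitted difference of -6.67 on the probe that passed (adjusted p = 0.0220), which was above background on no day 13 array of either site and on 1 day 24 inter-site array, so that its size is not measured either. The others, A_72_P001526, BF444388 and TC502169, have no symbol here. Without both libraries that stood apart, 0 probes passed, with 940 at an unadjusted p under 0.05 and a lowest adjusted p of 0.0573, and the fitted differences of CYP19A3, IL6 and BPI were -5.08, -3.34 and -6.32. For other probes this contrast does not show that the change was alike at both kinds of site.

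**Figure D5:**
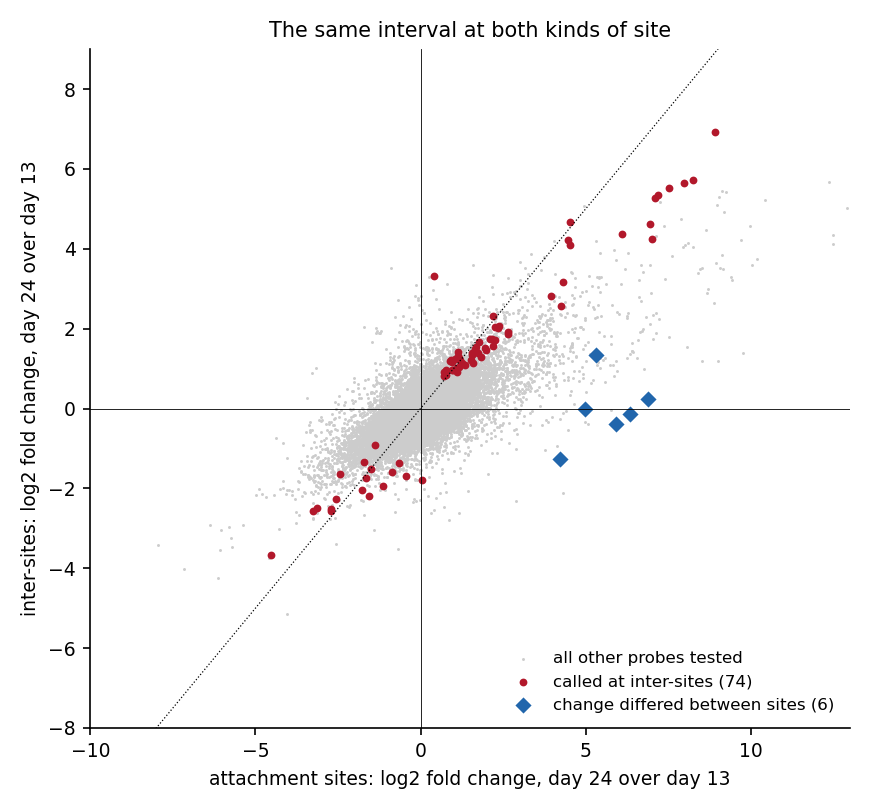
Log2 fold change of day 24 over day 13 at inter-sites (vertical) against that at attachment sites (horizontal), 1 point a probe; red points are the 74 probes called at inter-sites, blue diamonds the 6 whose change differed between the kinds of site, and the dotted line marks equal change. The red points have the same direction at both sites for 73 of 74 and lie on either side of the line, with 50 of 74 farther from 0 at attachment sites, and the blue points rose at attachment sites with inter-site changes between -1.26 and 1.34.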

How the data were processed

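Total RNA from 21 endometrium samples was hybridised to 1-colour Agilent arrays, and the deposited scanner files hold signal intensity per spot with flags for outliers and background, made with Feature Extraction 10.7.3.1 per the file headers. The deposited series table holds log2 values of the same arrays, whose centring is not stated, and was used as an alternative. It matched the scanner files best within the same array for 19 of 21 columns, and the columns of day 24 inter-site replicates 2 and 3 matched each other's files, so groups were not affected. From 43803 non-control spots, 43603 probes were formed and 30091 tested, those well above background, by the deposited intensity flag, on all 3 arrays of at least 1 group; the other 13512 were left out. A probe can so pass through the day or the kind of site on which it is high. The processed intensity deposited was log2-transformed and each array's 75th percentile subtracted. Probes were named through RefSeq accessions: 5458 of 5760 matched 1 symbol and 302 none, and 38145 probes have no symbol here. Genome positions are not given, since the files used here name no build.

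All 21 arrays were fitted as 7 group means with limma 3.58.1 in R 4.3.3 (lmFit, eBayes), called at an adjusted p under 0.05 over all tested probes. P-values measure the spread between these arrays, of which a group has 3. Each gene is represented by its probe with the highest mean. A signal not above background on all arrays of a day gives only a bound. The code was tested on simulated data. Named genes were the 12 largest rises and 12 largest falls, called genes before uncalled ones with non-overlapping days, then leading list members, genes measurable on only 1 of the days, and genes whose change differed between sites, 102 in all. Genes and lists were chosen with earlier results of these data known. Same-numbered day 13 and day 24 arrays deviated together by r of -0.38, 0.15 and -0.22, and were not taken as pairs. Alternatives were background correction, scaling, dim-probe filters, slide and replicate blocks, and leaving out arrays. 1 gene is not reported here.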

Additional observations from a re-analysis of the deposited data

Results flagged for a closer look

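The change from day 13 to day 24 differed between inter-sites and attachment sites in 6 probes by a direct test (limma), which took arrays as independent. The fitted inter-site minus attachment-site change was -6.46 for A_72_P001526, -5.0 for CYP19A3, -5.50 for BF444388, -6.31 for TC502169, -3.96 for IL6 and -6.67 for BPI. On the day 24 inter-site arrays A_72_P001526 read -4.77, -3.41 and -3.43, and on those of attachment sites 1.31, 0.48 and 2.75. TC502169 and CYP19A3 were measurable over background only on the 3 day 24 attachment-site arrays among those of these days, and BPI and BF444388 on none of the day 13 attachment-site arrays and at most 1 inter-site array a day. For these 4 probes the fitted values are set against dim signals and are not measured sizes.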

How the results depend on the processing

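Against 74 probes called at inter-sites, the count was 21 after normexp background correction (run on median signals, chosen after seeing the files), 33 with quantile normalization, 33 with the authors' deposited values, 7 without a filter on dim probes, 48 for probes above background on all 6 arrays, 1 with only the 6 arrays fitted, 10 with slide as a fixed block and 41 with it as a random block. With the replicate number as a block it was 23, though the numbers do not pair the sows. Leaving out 1 array gave 0 to 226. For the difference between kinds of site, against 6 calls, normexp gave 3, and 0 were left with only the arrays compared, with slide as a fixed block, with probes above background on all 6 arrays, and without both libraries that stood apart; leaving out 1 array gave 0 (without day 13 attachment-site replicate 3) to 59 (without day 24 inter-site replicate 2). Between these, it was 1 and 2 without day 13 attachment-site replicates 1 and 2, 14 and 1 without those numbered 1 and 3 of day 24, 1 and 3 without day 13 inter-site replicates 1 and 3, and 1 without either of day 24 inter-site replicates 1 and 3. The cause of these shifts was not tested. The replicate block gave 8 there.

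List medians moved by more than the spread between arrays as follows. After normexp they were -0.56 for T and NK cells, -0.39 for cytokines, -0.19 for prostaglandins, 0.09 for complement, 0.30 for immediate early genes, 0.39 for antigen presentation, 0.77 for proteasome, 0.79 for respiratory chain, 0.90 for N-glycosylation and 0.96 for translation. With quantile normalization N-glycosylation was 0.35, proteasome 0.43 and translation 0.44, and with the values the authors deposited these were 0.35, 0.42 and 0.44. Median scaling gave proteasome 0.65 and translation 0.77, and translation was 0.77 also without both libraries. With slide as a fixed block smooth muscle was 0.11, glycolysis 0.26, endothelium 0.38, conceptus 0.56, T and NK cells 0.65 and interferon response 0.70. Within slide 1, which holds 1 array of each day, macrophages were -1.32, T and NK cells -0.50, cell cycle -0.38, cytokines -0.27, glycolysis -0.04, matrix 0.11, complement 0.18, prostaglandins 0.45, translation 0.48, immediate early genes 0.49, interferon response 0.74, ER chaperones 0.80 and epithelium 1.03. Leaving out 1 inter-site array gave ranges of -0.33 to 0.32 for T and NK cells, -0.01 to 0.40 for angiogenesis, 0.27 to 0.64 for conceptus, 0.33 to 0.85 for matrix, 0.50 to 0.92 for glycolysis, -0.10 to 0.13 for growth factors, 0.05 to 0.26 for immediate early genes, 0.09 to 0.42 for metabolism, -0.29 to 0.33 for prostaglandins and 0.48 to 0.62 for proteasome. No named gene's call reversed. Leaving out an array cannot reverse a gene called between days that do not overlap. What changed was that calls were lost, all of them without day 24 inter-site replicate 2. Signal near background limits MMP1, AREG and BHMT to bounds or dim levels.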

Other observations

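A further pattern was signal that became measurable: 11 genes were too dim on all 3 day 13 inter-site arrays and above background on all 3 of day 24. Those with the largest bounds after MMP1 were not called (adjusted p from 0.153 to 0.535). LHCGR, the receptor for luteinizing hormone and choriogonadotropin, read -5.25, -6.20 and -5.72 on day 13 and -4.29, -0.89 and -4.84 on day 24, at least 4.43-fold higher, with replicate 2 far above the others. CLEC7A, a receptor for fungal glucans, was at least 2.02-fold higher, the factor TCF24 at least 2.29-fold, MYH1, a muscle myosin, at least 1.92-fold and PIGE-108A11.3 at least 1.80-fold. No gene of the 2016 was bounded in the other direction, while over all probes 48 were bounded upwards and 7 downwards. Detection was uneven between arrays. The share of probes above background was 68.68%, 68.73% and 73.85% on day 13 and 77.13%, 68.81% and 67.32% on day 24. Its part in these counts was not tested.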
